A study of Mus musculus with 21 samples.

Results

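The comparison described here is that of total RNA from forebrain with total RNA from kidney at embryonic day 14.5 (E14.5) of the mouse, which the design of the series allows through the 3 Brain_transcriptome and the 3 Kidney_transcriptome libraries, 6 of its 21 libraries. The other 15 hold RNA pulled down with tagged ribosomes from whole organs, from endothelial cells or from the Emx1 lineage, and of those only the 6 whole-organ ones (Brain_translatome and Kidney_translatome) are set beside some values below. All 6 total RNA libraries came from E14.5 embryos of the genotype Sox2Cre+/-;Gt(ROSA)26Sor-mCherry-Rpl10a+/-, so both organs carried the same Cre driver, which is active throughout the embryo proper, and the same mCherry-tagged ribosomal protein, and neither group is a wild-type control. The RNA was taken from cleared lysates before any pull-down, and each library pooled the forebrains of a pair of embryos, dissected with part of the diencephalon, or several kidneys. RNA was counted per RefSeq row in reads, and levels are given in RPKM, reads scaled to the length of the transcript and to the mapped reads of the library.

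The dorsal wall of the embryonic forebrain, the pallium, makes glutamatergic neurons and its ventral eminences make GABAergic interneurons, both from radial glia that line the ventricles. The kidney of this age grows by branching of an epithelial tube, the ureteric bud, into a mesenchyme whose condensed cap of progenitors forms nephrons, with a stroma between them. Both organs are also dividing, supplied with vessels and home to macrophages, so their total RNA holds shared as well as organ-restricted transcripts.

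The 6 libraries held between 43190754 and 56754015 reads assigned to genes in forebrain and between 31343319 and 51331105 in kidney, and 98.0 to 98.8% of these fell on rows with an mRNA accession. Log2 RPKM values of replicates correlated across rows with r between 0.9969 and 0.9982 in forebrain and between 0.9970 and 0.9975 in kidney, against 0.8777 to 0.8854 between organs, and rows are not independent replicates. The 3 kidney libraries were sequenced in a single lane, forebrain replicate 1 in another and forebrain replicates 2 and 3 in the third, so lane and organ cannot be told apart. In RNA of a whole organ, fewer cells of a type cannot be told apart from less RNA per cell.

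Forebrain and kidney differed at 53.5% of the 19841 rows with at least 1 read. With edgeR's quasi-likelihood test and a Benjamini-Hochberg adjusted p below 0.001, 5398 rows (27.2%) were higher in forebrain and 5218 (26.3%) in kidney, whereas 9225 did not pass. With a fold above 4 in addition, 1922 rows (9.69%) were higher in forebrain and 1608 (8.1%) in kidney. These percentages are the background for every count of a gene group below. As many as 11760 rows exceeded 1 RPKM in both organs, of 14036 that did so in either, and among the rows that passed 104 had reads in forebrain alone and 81 in kidney alone. Fold changes are log2 of forebrain over kidney, so that negative values mean higher in kidney. The value after ± was worked back from the test and is not a fitted standard error. With few reads in the lower organ it is smaller than counting error alone, so it overstates the precision of such folds. Sez6, for example, has 6 kidney reads and ± 0.10. Where the lower organ had no read, the fold is given as a lower bound against a level of 3 reads over its 3 libraries, and where it had 1 to 3 reads the ratio of scaled reads is given with a 95% interval that covers counting error only.

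**Figure D1:**
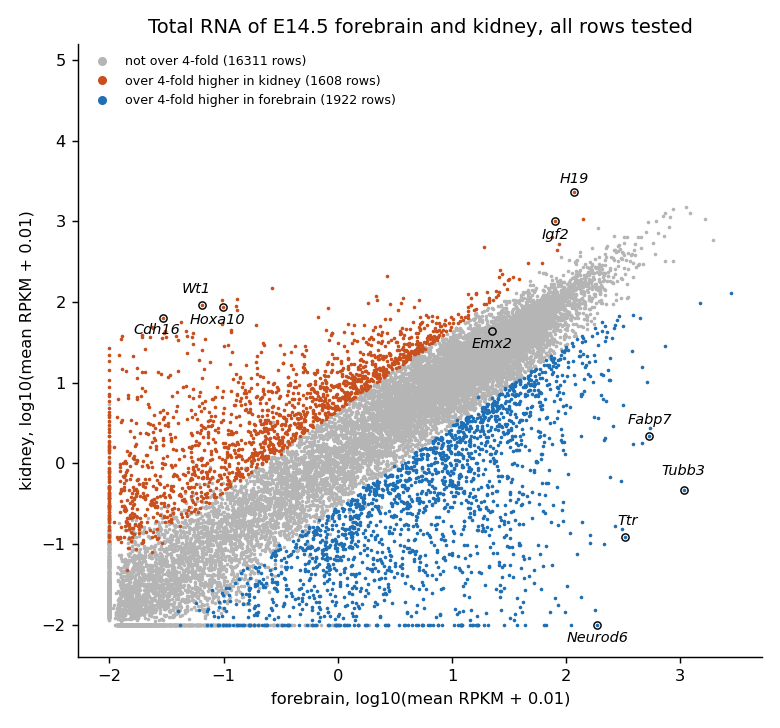
Mean RPKM of 3 libraries in forebrain (x axis) and kidney (y axis), both as log10 of RPKM + 0.01, for the rows tested. Blue and orange points mark the 1922 and 1608 rows that passed the test with a fold above 4. Neurod6, without a kidney read, lies along the lower edge. Cdh16 and Hoxa10 lie towards the left, with forebrain means of 0.0192 and 0.0891 RPKM.

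Of the transcription factors that pattern the telencephalon, 24 of 26 were higher in forebrain, with a median log2 fold change of 10.39 (9.52 with rows without a kidney read at their bound), where the median of all rows tested was -0.0166. Lhx2, required for cortical identity, had 141, 138 and 129.9 RPKM in the forebrain libraries and 0.12, 0.108 and 0.309 in the kidney libraries (9.87 ± 0.14, adjusted p 6.33e-13). Pax6, a regulator of dorsal radial glia, stood at 44.4, 41.9 and 38.5 RPKM in the forebrain libraries and 0.0488, 0.0818 and 0.0515 in the kidney libraries (9.62 ± 0.13). In both the 3 forebrain libraries lay far above all kidney libraries.

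The ventral telencephalon was present too. Dlx1 and Dlx2, which drive interneuron formation, reached 101, 104 and 98.6 and 60.1, 62.1 and 58.0 RPKM in forebrain, with 4 and 6 reads over the 3 kidney libraries. Nkx2-1, of the medial eminence, had 33.6, 35.2 and 37.8 RPKM in the forebrain libraries and 0, 0.0111 and 0 in the kidney libraries, a read ratio of 11986 (95% counting interval 2151 to 473461). Gsx2, of the lateral eminence, had 4.77, 5.12 and 4.71 RPKM in forebrain and no read in kidney, so that it was at least 377-fold higher in forebrain, and Lhx8, of cholinergic and interneuron lineages, was at least 1028-fold higher in forebrain.

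A pair of the patterning genes went the other way. Emx2, a pallial patterning factor that is also needed to form the kidney, had 24.5, 22.9 and 19.7 RPKM in the forebrain libraries and 40.0, 44.6 and 44.7 in the kidney libraries, higher in kidney by the test (-0.76 ± 0.07, adjusted p 2.66e-06), while its paralogue Emx1 had 42.1, 42.8 and 39.5 RPKM in the forebrain libraries and 2.18, 2.93 and 2.77 in the kidney libraries (4.18 ± 0.11). Nr2f2, an orphan nuclear receptor of many mesenchymal and endothelial cells, had 52.4, 55.1 and 57.3 RPKM in the forebrain libraries and 154, 149 and 151 in the kidney libraries (-1.28 ± 0.05), and its paralogue Nr2f1 was higher in forebrain (2.01 ± 0.04). In Emx2 and Nr2f2 the libraries of the organs did not overlap.

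All 26 factors of cortical neuron identity were higher in forebrain, 22 of them more than 4-fold, with a median log2 fold change of 7.69. The proneural factor Neurog2, expressed in dividing pallial progenitors, had 83.3, 79.4 and 77.6 RPKM in the forebrain libraries and 0, 0.0334 and 0 in the kidney libraries. The factors that follow it in the glutamatergic lineage were similarly restricted. Eomes, of intermediate progenitors, had 60.1, 60.5 and 57.9 RPKM in the forebrain libraries and 0.0645, 0.0676 and 0.0615 in the kidney libraries (10.04 ± 0.07). Tbr1, of early-born neurons, had 78.1, 76.2 and 72.0 RPKM in the forebrain libraries and 0.0544, 0.0311 and 0.0485 in the kidney libraries (10.87 ± 0.09). Neurod2 and Neurod6, of postmitotic cortical neurons, had 109, 112 and 108 and 180.3, 193 and 190.2 RPKM in forebrain and not a single read in kidney, which makes them at least 16002-fold and at least 18833-fold higher. Fezf2, of deep-layer projection neurons, also had no kidney read and was at least 4717-fold higher in forebrain. The smallest differences of this group were those of Foxp1 (0.35 ± 0.05), Cux1 (0.44 ± 0.05), Mef2c (0.79 ± 0.05) and Cux2 (0.95 ± 0.06), factors with roles in many tissues, and Foxp1 stood at 16.0, 16.4 and 16.3 RPKM in forebrain against 14.6, 14.4 and 12.8 in kidney. Foxp1 no longer passed without composition factors.

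The Neurod and Neurog family as a whole held 7 members, and all were called higher in forebrain, with 61113 reads of Neurod6 at the top and 39 of Neurog3 at the bottom. Over the 3 kidney libraries the family had 3 reads in all, all of Neurog2 and all in kidney replicate 2. The 5 Zic genes, zinc finger factors of the dorsal midline and septum, behaved alike: their forebrain means ran from 3.99 RPKM in Zic5 to 85.7 in Zic1, and none had more than 3 reads in kidney.

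Radial glia genes split. Of 20, 16 were higher in forebrain and 4 in kidney, with a median log2 fold change of 1.26. Fabp7, a fatty acid binding protein of radial glia, had 508, 571 and 534 RPKM in the forebrain libraries and 1.75, 2.5 and 2.28 in the kidney libraries (8.16 ± 0.09). Sox2, which maintains neural progenitors, had between 90.2 and 97.2 RPKM in the forebrain libraries and 0.192, 0.171 and 0.183 in the kidney libraries (9.19 ± 0.07), and Sox1 and Sox3, its close relatives, followed it (8.99 ± 0.13 and 8.61 ± 0.17). The intermediate filament genes that radial glia share with mesenchyme were much closer between organs: Vim had 431, 451 and 409.6 RPKM in the forebrain libraries and 281, 285 and 285 in the kidney libraries (0.79 ± 0.06), and Nes 87.5, 83.6 and 77.5 RPKM in the forebrain libraries and 51.7, 42.2 and 51.6 in the kidney libraries (0.96 ± 0.08). Of the Notch effectors, Hes5 was higher in forebrain (3.00 ± 0.10) and Hes1 in kidney, at 40.1, 43.6 and 44.3 RPKM against 14.8, 16.9 and 15.5 (-1.25 ± 0.07). The other 3 genes higher in kidney were Cspg4 (-2.33 ± 0.08), a proteoglycan of pericytes, Mfge8 (-0.48 ± 0.07) and Prom1 (-0.35 ± 0.05).

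Cytoskeletal genes of neurons were abundant in forebrain. All 22 genes of that list were higher in forebrain, 21 more than 4-fold, and their summed level was 7133, 7442 and 7507 RPKM in the forebrain libraries and 278, 257 and 247 RPKM in the kidney libraries. Tubb3, the neuron-specific beta-tubulin, had 1039, 1107 and 1073 RPKM in the forebrain libraries and 0.548, 0.373 and 0.466 in the kidney libraries (11.35 ± 0.14, adjusted p 2.94e-13). Tuba1a, the main alpha-tubulin of young neurons, was higher still in forebrain and was also present in kidney, with 1382, 1559.6 and 1536 RPKM in the forebrain libraries and 105, 96.2 and 91.4 in the kidney libraries (4.12 ± 0.10). Stmn2, which destabilises microtubules in growth cones, had 357, 392 and 403 RPKM in the forebrain libraries and 1.62, 1.61 and 1.94 in the kidney libraries (8.00 ± 0.09), and its paralogue Stmn1, found in most dividing cells, differed least in the list (1.91 ± 0.04). Ina, a neurofilament of young neurons, was at 276, 251 and 274 RPKM in forebrain, above Nefl and Nefm, neurofilaments of mature axons, with means of 25.0 and 28.2 RPKM.

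Genes of transmitter release were already on. All 22 were higher in forebrain, 19 of them more than 4-fold, with a median of 5.14. Snap25, a SNARE of the presynaptic membrane, had 47.2, 52.0 and 50.2 RPKM in the forebrain libraries and 0.213, 0.198 and 0.182 in the kidney libraries (8.14 ± 0.09), and Unc13a, which primes vesicles, had 28.8, 27.6 and 29.9 RPKM in the forebrain libraries and 0.119, 0.109 and 0.113 in the kidney libraries (8.16 ± 0.07). The smallest differences were in Nsf (0.70 ± 0.04), Stx1a (1.56 ± 0.07) and Vamp2 (1.68 ± 0.05), and Nsf and Vamp2 belong to the fusion machinery that non-neuronal cells also use.

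Of 24 genes of GABA and glutamate signalling, 22 were higher in forebrain. Gad2, which makes GABA, had 35.8, 34.7 and 35.2 RPKM in the forebrain libraries and 0, 0.00439 and 0 in the kidney libraries, a read ratio of 27589 (95% counting interval 4951 to 1089740). Slc17a6 and Slc17a7, the vesicular glutamate transporters, were both present in forebrain (27.7, 25.0 and 26.2 and 19.7, 18.3 and 18.5 RPKM). Gria2, the AMPA receptor subunit that limits calcium entry, was at 75.7, 55.1 and 68.2 RPKM in forebrain (7.14 ± 0.14). Gria4, with 9.75, 9.16 and 9.46 RPKM in the forebrain libraries and 9.32, 7.93 and 8.14 in the kidney libraries, did not pass the test (0.32 ± 0.07, adjusted p 0.00273), and neither did Grin2a, an NMDA receptor subunit of later stages, with 0.134, 0.047 and 0.0909 RPKM in forebrain and 0.0305, 0.0329 and 0 in kidney. Its paralogue Grin2b was higher in forebrain at 3.01, 2.17 and 3.03 RPKM (7.07 ± 0.23).

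Voltage-gated channels were lower in level and less uniform. Of 20, 18 were higher in forebrain with a median log2 fold change of 2.88. Cacng2, an AMPA receptor partner, was at least 817-fold higher in forebrain. Scn2b, with 3.2, 3.12 and 3.69 RPKM in the forebrain libraries and 4.34, 4.14 and 4.07 in the kidney libraries, did not pass. Of 20 adhesion and guidance receptors, 19 were higher in forebrain. Cntn2, an axonal glycoprotein, had 86.1, 93.6 and 94.4 RPKM in the forebrain libraries and 0.289, 0.233 and 0.246 in the kidney libraries (8.65 ± 0.10), while the Slit receptor Robo2, which also acts in kidney outgrowth, did not pass, with 33.1, 29.7 and 32.1 RPKM in the forebrain libraries and 40.3, 38.1 and 37.1 in the kidney libraries (-0.10 ± 0.06).

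The clustered protocadherins, which give neurons individual surface identities, differed by subfamily. Of the alpha cluster, 12 of 14 rows tested were higher in forebrain, all 12 more than 4-fold, with a median log2 fold change of 6.04. Of the beta cluster 12 of 22 were higher, 1 of them more than 4-fold (median 0.75), and of the gamma cluster 20 of 22, with 2 more than 4-fold (median 1.30). The alpha and gamma isoforms share their constant exons, so reads can be split between rows of a cluster by the counting.

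RNA-binding proteins of neural cells and a list of repressors and non-neural splicing regulators mostly differed in opposite directions. All 16 neural RNA-binding genes were higher in forebrain. Elavl3, an mRNA-stabilising Hu protein, had 169, 151 and 168 RPKM in the forebrain libraries and 0.113, 0.0836 and 0.0831 in the kidney libraries (10.91 ± 0.12), and Srrm4, which promotes inclusion of neural microexons, had 33.8, 30.02 and 32.6 RPKM in the forebrain libraries and 0.101, 0.12 and 0.108 in the kidney libraries (8.38 ± 0.09). Of 12 genes listed as repressors and non-neural regulators of splicing, 9 were higher in kidney and 1 in forebrain. Rest, which silences neuronal genes by binding RE1 elements, had 5.86, 5.18 and 5.18 RPKM in the forebrain libraries and 27.1, 24.6 and 22.3 in the kidney libraries (-2.003 ± 0.08, adjusted p 2.58e-09). Ptbp1, a splicing repressor of neural exons, had 60.9, 58.6 and 54.6 RPKM in the forebrain libraries and 235, 244 and 236 in the kidney libraries (-1.86 ± 0.05), against 121, 121 and 119.7 RPKM in forebrain and 41.9, 41.1 and 41.1 in kidney for its neural paralogue Ptbp2 (1.73 ± 0.04). Neither Rest nor Ptbp1 was absent from forebrain. Esrp1, the splicing regulator of epithelia, was close to absent there, with 0.0121, 0.0229 and 0.0202 RPKM against 12.8, 12.4 and 13.50 in kidney (-9.18 ± 0.13). Hdac2, a deacetylase of several repressor complexes, was the member higher in forebrain (0.75 ± 0.05).

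**Figure D2:**
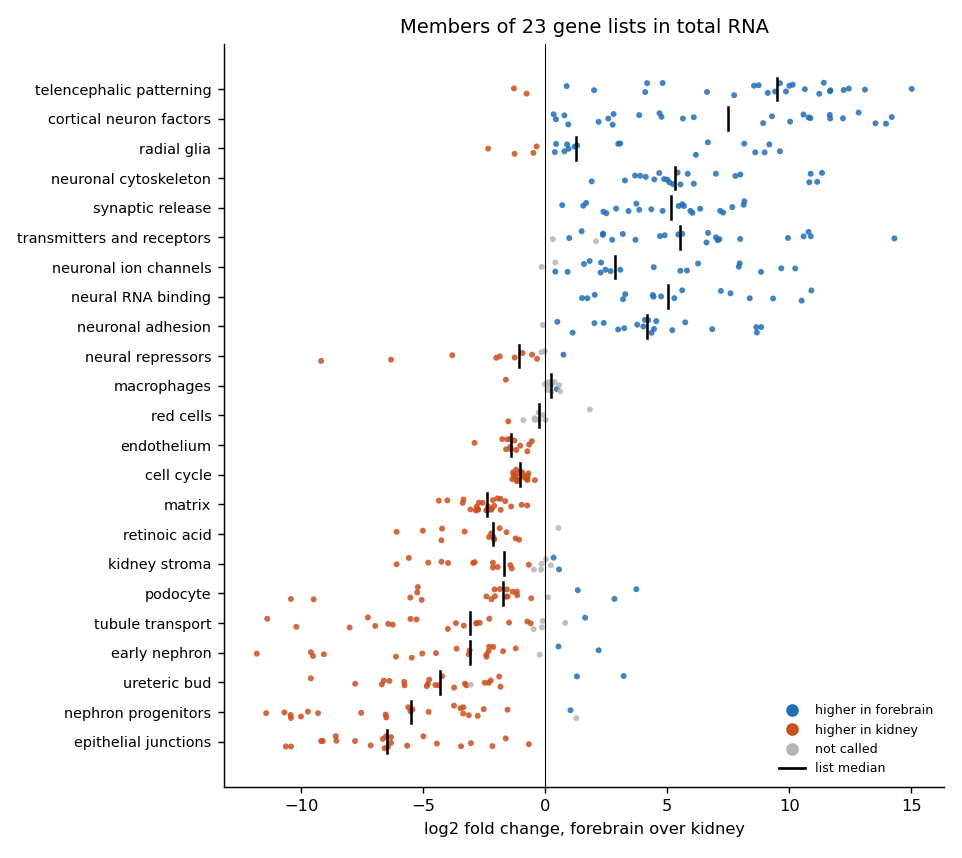
Log2 fold change of forebrain over kidney for the members of 23 gene lists, 1 point a gene, coloured by the test, with a black bar at the list median and rows without reads in 1 organ placed at their bound. The lists of neurons and of epithelia lie on opposite sides of 0, and the medians of macrophage and red cell genes lie close to it.

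Promoters were searched for the 9 bases TTCAGCACC of the RE1 element, on both strands, in RefSeq sequence (build GRCm38.p6) of 250 bases before and 50 after the start site. This search and the 6 patterns given with it were chosen after the expression values had been seen. The pattern was in a promoter of 27 of 1387 rows more than 4-fold higher in forebrain (1.95%). It was in a promoter of 2 of 1159 rows more than 4-fold higher in kidney (0.173%) and of 81 of 15002 of all rows tested (0.54%). These counts cover the rows that had a promoter sequence, and a row with several promoters counted once if any matched. Mtag2 and Ppfia3, on opposite strands, hold the same match and were counted as 2 of the forebrain rows. The promoters of 5 rows, of genes of release, adhesion, polarity and patterning, are shown as 60 bases around the match, all before the start site and read on the strand of the gene, with the match in capitals.
Syn1 promoter, chrX:20921109-20921168, minus strand: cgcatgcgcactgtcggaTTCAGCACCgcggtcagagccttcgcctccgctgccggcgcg
Nsg2 promoter, chr11:32000473-32000532, plus strand: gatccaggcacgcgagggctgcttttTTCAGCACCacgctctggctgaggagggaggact
Celsr3 promoter, chr9:108825892-108825951, plus strand: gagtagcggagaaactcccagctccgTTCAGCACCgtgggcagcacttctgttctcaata
Nlgn1 promoter, chr3:26154106-26154165, minus strand: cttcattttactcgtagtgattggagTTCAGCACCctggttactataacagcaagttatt
Gsx1 promoter, chr5:147188636-147188695, plus strand: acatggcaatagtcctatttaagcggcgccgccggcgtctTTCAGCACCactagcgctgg
Syn1 encodes synapsin 1, which tethers synaptic vesicles, and had 30.7, 27.4 and 30.2 RPKM in the forebrain libraries and 0.276, 0.201 and 0.203 in the kidney libraries (7.17 ± 0.11). Nlgn1, a postsynaptic adhesion protein, had 7.12, 6.69 and 7.22 RPKM in the forebrain libraries and 0.414, 0.421 and 0.462 in the kidney libraries (4.09 ± 0.09). Nsg2, a neuronal endosomal protein, was among the 10 most abundant rows of forebrain, with 424, 499 and 476 RPKM in the forebrain libraries and 1.91, 1.66 and 1.8 in the kidney libraries (8.21 ± 0.10). Gsx1, of ventral progenitors, had 2.0, 2.8 and 2.89 RPKM in forebrain and no kidney read, and was at least 214-fold higher in forebrain. Celsr3, a cadherin that guides axon tracts, had a log2 fold change of 9.27. The 2 kidney rows with the pattern were Arhgef3 and Hoxd12. A match of letters is not a binding site, and no binding was measured.

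For comparison, the neural E-box CAGATG was in a promoter of 18.5% of the forebrain rows, 17.5% of the kidney rows and 15.4% of all. CAGCTG was in 24.3%, 23.4% and 19.0% in the same order. A TATAAA box was in 12.0%, 13.9% and 11.1%, CCAAT in 40.8%, 36.8% and 41.9%, and the GATA pattern AGATAA in 9.66%, 10.7% and 9.43%. The ETS pattern TTCCGG was in a promoter of 11.6% and 11.1% of the organ-restricted rows and of 23.9% of all. As a ratio between the forebrain and kidney sets the share of the RE1 letters differed most, but that ratio rests on 2 kidney rows. The other patterns are shorter and far more frequent, so their ratios are not comparable with that of RE1, and no conclusion is drawn from the order.

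In kidney, the programme of the nephron progenitors was the counterpart of the cortical factors. Of 24 genes of the cap mesenchyme, 22 were higher in kidney, 21 of them more than 4-fold, with a median log2 fold change of -5.47. Hoxa10, Hoxa11, Hoxc10, Hoxd10 and Hoxd11 are among these 21 and are counted again with the Hox genes below. Six2, which keeps the progenitors undifferentiated, had 0.73, 0.923 and 0.788 RPKM in the forebrain libraries and 93.0, 87.7 and 74.6 in the kidney libraries (-6.51 ± 0.12, adjusted p 3.53e-12). Wt1, needed for survival of the mesenchyme and later for podocytes, had 0.0226, 0.0972 and 0.0442 RPKM in the forebrain libraries and 87.9, 91.8 and 94.2 in the kidney libraries (-10.41 ± 0.13). Gdnf, the ligand that draws the ureteric bud, had 0.0598, 0.151 and 0.111 RPKM in the forebrain libraries and 21.8, 27.2 and 21.98 in the kidney libraries (-7.54 ± 0.19). Sall1, also expressed in neural tissue, was at 28.8, 25.5 and 25.4 RPKM in forebrain and differed less (-1.54 ± 0.06). Dpf3, a subunit of chromatin remodelling complexes, passed as higher in forebrain (1.04 ± 0.09), although its RPKM values overlapped, at 7.24, 5.94 and 6.68 RPKM in the forebrain libraries and 6.01, 5.37 and 5.57 in the kidney libraries.

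Of 24 genes of the ureteric bud and collecting duct, 21 were higher in kidney (median -4.42). Ret, the receptor of Gdnf at the bud tips, had 0.669, 0.808 and 0.828 RPKM in the forebrain libraries and 10.6, 13.1 and 12.3 in the kidney libraries (-3.73 ± 0.11), and its co-receptor Gfra1 8.4, 7.76 and 7.57 RPKM in the forebrain libraries and 49.4, 49.99 and 50.9 in the kidney libraries (-2.48 ± 0.05). Wnt11, a tip ligand, had 0.109, 0.127 and 0.21 RPKM in the forebrain libraries and 16.2, 17.2 and 17.0 in the kidney libraries (-6.61 ± 0.15). Tfcp2l1, a transcription factor of the collecting duct, had 0.191, 0.191 and 0.226 RPKM in the forebrain libraries and 22.9, 24.2 and 24.7 in the kidney libraries (-6.69 ± 0.06). Wnt7b, a ligand of the duct that is also made in cortex, was higher in forebrain with 52.9, 58.8 and 58.1 RPKM in the forebrain libraries and 6.77, 7.08 and 6.84 in the kidney libraries (3.22 ± 0.05), and so was Sox9 (1.30 ± 0.05), which acts in the bud tips and in radial glia. Aqp2, the water channel of mature principal cells, had 0.0694, 0.209 and 0.136 RPKM in kidney and did not pass.

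The steps by which the cap mesenchyme becomes epithelium were represented as well. Of 21 genes of renal vesicles and early nephrons, 18 were higher in kidney (median -3.09). Wnt4, which triggers the transition, had 0.994, 1.19 and 1.16 RPKM in the forebrain libraries and 40.7, 41.1 and 44.0 in the kidney libraries (-5.03 ± 0.07), and Pax8 had 0.083, 0.091 and 0.0851 RPKM in the forebrain libraries and 51.2, 57.5 and 52.0 in the kidney libraries (-9.07 ± 0.10). Osr2 had 0.0409, 0.031 and 0.0571 RPKM in the forebrain libraries and 34.6, 37.2 and 38.5 in the kidney libraries (-9.51 ± 0.14). Lhx1, shared with neurons of the diencephalon, differed less (-2.31 ± 0.11), and the POU factor Pou3f3, of cortical neurons and the distal nephron, was higher in forebrain with 94.7, 96.9 and 94.6 RPKM in the forebrain libraries and 22.7, 21.9 and 26.9 in the kidney libraries (2.19 ± 0.06).

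Podocytes, the cells of the filter, gave 18 of 22 genes higher in kidney and 3 in forebrain, with a smaller median of -1.73. Nphs1, nephrin of the slit diaphragm, was low at 2.25, 2.76 and 3.77 RPKM in kidney (-5.22 ± 0.23). The genes higher in forebrain were the phosphatase Ptpro (2.84 ± 0.14), the scaffold Magi2 (3.74 ± 0.11) and the phospholipase Plce1 (1.34 ± 0.09), and the first had 23.4, 23.6 and 24.6 RPKM in the forebrain libraries and 3.33, 3.09 and 5.14 in the kidney libraries. Podocytes and neurons share these membrane and scaffold proteins.

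Tubule transport was under way but low. Of 24 transporters and receptors, 19 were higher in kidney (median -3.08). Cdh16, a cadherin of kidney epithelia, was the most abundant at 57.1, 65.9 and 67.1 RPKM, with 9 reads over the forebrain libraries (-11.39 ± 0.18). Slc34a1, the phosphate transporter of the proximal tubule, had 3.54, 8.17 and 9.12 RPKM in kidney, and Slc12a1, the salt transporter of the loop of Henle, 2.17, 5.6 and 7.59. In both, kidney replicate 1 lay below the other two. By scaled counts, 20 of the 24 tubule rows were lowest in kidney replicate 1, as were 16 of 24 ureteric bud rows, 11 of 21 early nephron rows, 10 of 24 nephron progenitor rows, 5 of 22 podocyte rows and 2 of 20 stromal rows, against 33% of all rows higher in kidney. Podocyte rows were most often lowest in replicate 2 (14 of 22), which held the lowest value of 26.5% of all rows higher in kidney. Slc22a6, an organic anion transporter also found in the choroid plexus and meninges, was higher in forebrain, with 2.06, 2.96 and 2.92 RPKM in the forebrain libraries and 0.703, 1.06 and 1.18 in the kidney libraries (1.64 ± 0.19).

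Stroma had the lowest share of members higher in kidney of the 6 renal lists. Of 20 genes, 13 were higher in kidney and 2 in forebrain (median -1.69). Foxd1, the defining factor of stromal progenitors, had 1.89, 2.52 and 2.26 RPKM in the forebrain libraries and 44.0, 37.0 and 39.2 in the kidney libraries (-3.98 ± 0.11). Aldh1a2, which makes retinoic acid, had 1.99, 3.02 and 3.11 RPKM in the forebrain libraries and 221, 204 and 210.4 in the kidney libraries (-6.09 ± 0.12). Meis2, a cofactor of Hox proteins that also marks the striatal primordium, was slightly higher in forebrain (0.35 ± 0.06), a call lost without composition factors or without kidney replicate 2 or 3. Retinoic acid genes as a group followed Aldh1a2, with 14 of 15 higher in kidney (median -2.15). The receptor Rarb, itself induced by retinoic acid, had 4.44, 5.61 and 5.11 RPKM in the forebrain libraries and 29.4, 28.5 and 27.1 in the kidney libraries (-2.297 ± 0.09), and Dhrs3, which limits its synthesis, had 2.25, 3.47 and 2.81 RPKM in the forebrain libraries and 64.3, 64.1 and 57.9 in the kidney libraries (-4.25 ± 0.14).

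All 22 genes of epithelial junctions were higher in kidney, with the largest median of the renal lists, -6.48. Cdh1, E-cadherin, had 0.459, 0.974 and 0.894 RPKM in the forebrain libraries and 42.3, 45.8 and 48.3 in the kidney libraries (-5.65 ± 0.16). Cldn4 and Cldn8, claudins of the collecting duct, had 35.8, 36.3 and 34.3 and 37.1, 38.1 and 34.6 RPKM in kidney and 5 and 8 reads over the forebrain libraries (-10.62 ± 0.15 and -10.41 ± 0.21). Of 23 claudin genes tested, 12 were higher in kidney and none in forebrain; Cldn5, of endothelial junctions, had means of 36.7 and 51.1 RPKM and did not pass.

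All 25 matrix genes were also higher in kidney (median -2.38). Col1a1, of interstitial collagen, had 26.1, 26.9 and 24.0 RPKM in the forebrain libraries and 232, 189 and 194 in the kidney libraries (-2.81 ± 0.09), and Lamc1, a laminin chain of most basement membranes, had 16.4, 16.1 and 16.1 RPKM in the forebrain libraries and 120.2, 126 and 129 in the kidney libraries (-2.76 ± 0.06). Frem2 and Fras1, which form a complex around the bud, had 32.8, 29.4 and 30.4 and 21.4, 21.1 and 22.1 RPKM in kidney (-4.36 ± 0.07 and -2.84 ± 0.05). Of 43 collagen genes, 30 were higher in kidney and 6 in forebrain.

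Hox genes were higher in kidney almost throughout. These homeobox genes lie in 4 clusters and set position along the trunk, and the forebrain lies in front of their domain. Of 39 rows, 36 were tested and 35 were higher in kidney, all 35 more than 4-fold. The exception was Hoxc13, with 1 read in forebrain and 2 in kidney. Over all rows there were 180 reads in the 3 forebrain libraries and 221276 in the 3 kidney libraries, and 11 rows had no forebrain read. Hoxa10 was the most abundant, with 0, 0.173 and 0.0947 RPKM in the forebrain libraries and 83.9, 86.6 and 86.7 in the kidney libraries (-9.72 ± 0.20). Hoxd9 had 0, 0.00842 and 0 RPKM in the forebrain libraries and 35.7, 37.3 and 40.9 in the kidney libraries, a read ratio of 10454 (95% counting interval 1876 to 412967).

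Kidney levels differed by paralogue group, the position of a gene within its cluster. Summed over the clusters, mean kidney RPKM was 192 for group 10 (3 genes), 112 for group 9 (4 genes) and 85.2 for group 11 (3 genes). It was 2.46 for group 1 (3 genes), 6.45 for group 12 (2 genes) and 0.478 for group 13 (4 genes). The 5 groups from 4 to 8, with 2 to 4 genes each, lay between 47.5 and 82.6. These sums depend on the number of genes in a group and are not levels per gene. By cluster, the sums were 220.4 RPKM for Hoxa (chr6:52155367-52260880), 281 for Hoxb (chr11:96194316-96368254), 119 for Hoxc (chr15:102921131-103036856) and 227 for Hoxd (chr2:74668225-74765142), in RefSeq coordinates of GRCm38. Some Hox transcripts overlap their neighbours or antisense RNAs, and the library kit does not mark strand, so reads may be shared between such rows. Hoxa11as, an antisense RNA of this kind, had 38.4, 34.7 and 36.8 RPKM in kidney and 2 reads in forebrain.

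The forebrain Hox reads were unevenly spread, with 10 in replicate 1, 107 in replicate 2 and 63 in replicate 3, which is 0.0147%, 0.118% and 0.0781% of the kidney level. The 12 kidney rows with the largest ratios gave 1, 29 and 15 reads in the same libraries, against 50189, 41170 and 33339 in kidney. Forebrain replicates 2 and 3 shared their lane with libraries of kidney ribosome-bound RNA, and replicate 1 did not. The part of the lane in these traces was not tested. In the other direction, the 12 forebrain rows with the largest ratios had 6, 12 and 7 reads in the kidney libraries, against 161612, 210048 and 188293 in forebrain.

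**Figure D3:**
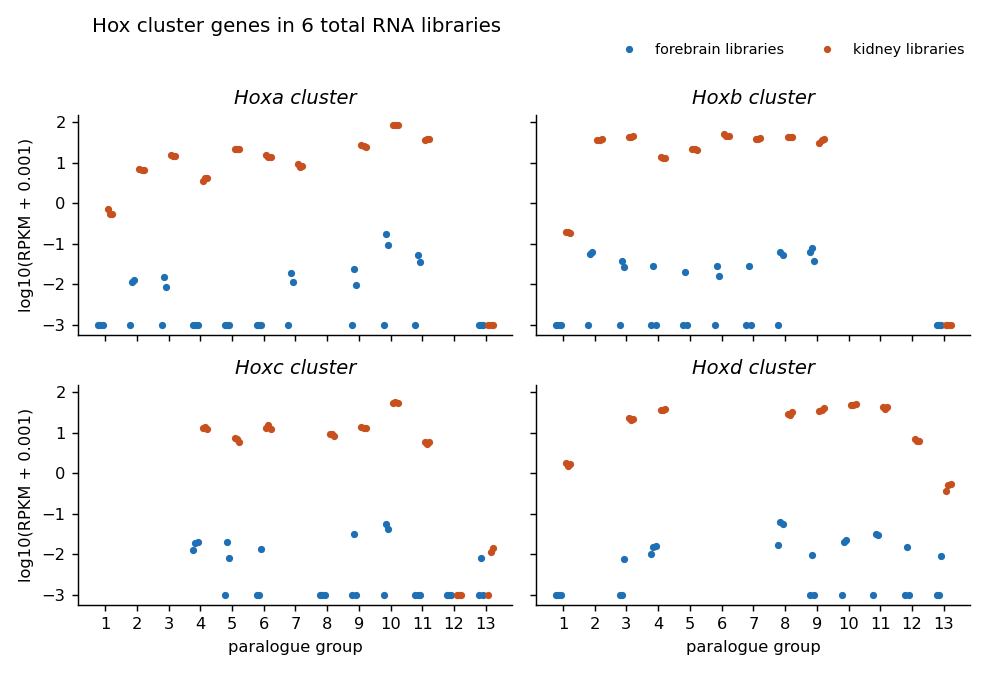
RPKM of the Hox genes by cluster and paralogue group (x axis) in the 6 total RNA libraries, as log10 of RPKM + 0.001, with blue for forebrain and orange for kidney. Kidney levels rise to 85.7 RPKM at Hoxa10 and drop towards groups 12 and 13 and group 1. Forebrain points reach at most 0.173 RPKM, at Hoxa10 in replicate 2, and those at -3 have no read.

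Several other regulator families had members called in each direction, whereas Gata and Hnf genes were called in kidney alone. The shares higher in forebrain and in kidney were 33.3% and 22.2% for Pax, 35.7% and 23.8% for Fox and 26.7% and 20% for T-box genes. Over all rows tested they were 27.2% and 26.3%, so a split of this kind is not particular to these families. Of 9 Pax genes, Pax6, Pax3 and Pax7 were higher in forebrain and Pax2 and Pax8 in kidney. Pax3 and Pax7 were low. Pax3 had a forebrain mean of 0.315 RPKM, and the 11 midbrain and hindbrain markers, which include both, summed to at most 1.95 RPKM in a forebrain library. Pax2, required for all parts of the kidney, had 0.0231, 0.123 and 0.213 RPKM in the forebrain libraries and 90.6, 91.9 and 88.8 in the kidney libraries (-9.30 ± 0.18), almost the mirror of Pax6. In the sine oculis family, Six3 and Six6 were higher in forebrain and Six2, Six4 and Six5 in kidney. Six3, of the anterior forebrain and eye, had 13.2, 14.2 and 14.5 RPKM in the forebrain libraries and 0.0267, 0 and 0.00873 in the kidney libraries (10.14 ± 0.23). It lies next to Six2 on chromosome 17 (Six3 at chr17:85613608-85626191 and Six2 at chr17:85662736-85688254), with 36544 bases between them, so neighbouring paralogues had opposite organ patterns. Six6, of the hypothalamus and eye, varied between forebrain libraries, at 0.0589, 1.32 and 1.15 RPKM, with replicate 1 below the other two, and did not pass with most single libraries left out.

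Lhx2, Lhx5, Lhx6, Lhx8 and Lhx9 were higher in forebrain and only Lhx1 in kidney, of 8 tested. Of 6 Gata genes none was higher in forebrain and 4 were in kidney, among them Gata3, which guides the nephric duct, with 0.79, 0.583 and 1.24 RPKM in the forebrain libraries and 19.6, 24.3 and 23.5 in the kidney libraries (-4.50 ± 0.22). All 4 Hnf genes were higher in kidney, and Hnf4a, of the proximal tubule, had 0, 0.00406 and 0.00448 RPKM in the forebrain libraries and 11.6, 15.7 and 17.5 in the kidney libraries, a read ratio of 4176 (95% counting interval 1156 to 34487). Among 15 T-box genes, Tbr1, Eomes, Tbx15 and Tbx6 were higher in forebrain and Tbx2, Tbx3 and Tbx10 in kidney, and Tbx2 had 2.2, 2.65 and 2.29 RPKM in the forebrain libraries and 38.4, 39.2 and 40.2 in the kidney libraries (-3.85 ± 0.06).

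Of 19 Sox genes, 13 were higher in forebrain and 4 in kidney. Sox11 and Sox4, of young neurons and many embryonic mesenchymes, were the most abundant, with means of 263 and 289 RPKM in forebrain and 47.1 and 66.9 in kidney (2.67 ± 0.10 and 2.30 ± 0.07). The 4 higher in kidney were Sox7, Sox17 and Sox18, of endothelium, and Sox13. Fox genes were mixed, with 15 of 42 higher in forebrain and 10 in kidney. Foxc2, of podocytes and kidney mesenchyme, had 1.01, 1.58 and 1.1 RPKM in the forebrain libraries and 54.2, 52.9 and 53.7 in the kidney libraries (-5.24 ± 0.12), and Foxo6, of developing neurons, had means of 30.1 and 0.681 RPKM (5.65 ± 0.09). Sall2 showed no difference that passed, at 41.1, 38.8 and 40.7 RPKM in the forebrain libraries and 46.2, 44.6 and 45.2 in the kidney libraries (log2 fold change 0.00 ± 0.04, with a sign that changed between alternatives and a pass in kidney without composition factors), while Sall3 was higher in forebrain (2.19 ± 0.09) and Sall1 in kidney.

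**Figure D4:**
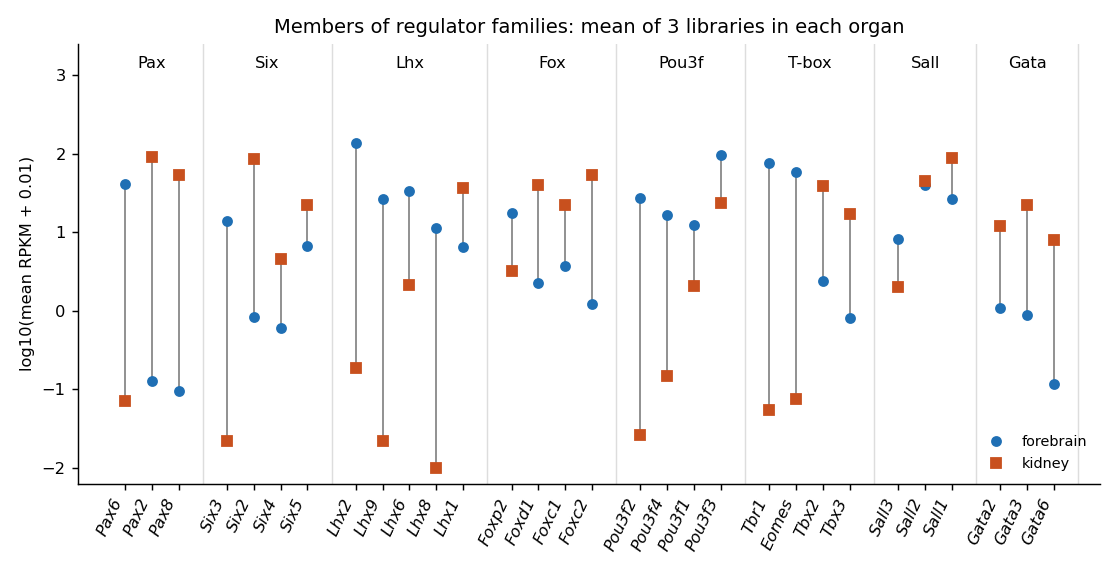
Mean RPKM of 3 libraries in forebrain (blue circles) and kidney (orange squares) for members of 8 regulator families, as log10 of RPKM + 0.01, joined by a line for each gene. In the Pax, sine oculis, Lhx, Fox and T-box families the blue point is above for some members and the orange for others, and the points of Sall2 nearly coincide.

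A few microRNA rows were also called, in both directions. Hairpin rows of microRNAs were counted from poly(A) RNA, so their reads come from precursor or host transcripts and not from mature microRNAs. Of 298 such rows tested, 7 were higher in forebrain and 4 in kidney. Those described were chosen after their values had been seen. Mir9-2 had 82, 100 and 102 reads in the forebrain libraries and 1, 1 and 0 in kidney, and Mir124a-2 had 51, 68 and 53 reads and none in kidney. Mir196a-1 had no read in forebrain and 131, 104 and 99 in kidney, and Mir10a none and 16, 20 and 13. Both lie within the span of the Hoxb cluster. The mature sequences, from RefSeq on GRCm38.p6, are shown with the seed (bases 2 to 8), which sets target choice, in capitals.
miR-9-5p: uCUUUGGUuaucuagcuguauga
miR-9-3p: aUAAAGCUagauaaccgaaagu
miR-10a-5p: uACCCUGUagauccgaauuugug
miR-196a-5p: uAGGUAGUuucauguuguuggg
miR-9 is known for promoting neuronal differentiation, and miR-10 and miR-196 for targeting Hox transcripts. The 4 seeds differ from one another.

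Cell division genes were all higher in kidney. All 20 had a log2 fold change between -1.34 and -0.42, with a median of -1.04, and none exceeded 4-fold. Mki67, of all cycling phases, had 51.9, 39.8 and 42.4 RPKM in the forebrain libraries and 84.4, 80.6 and 87.1 in the kidney libraries (-0.72 ± 0.10), and Mcm4, of the replicative helicase, had 29.8, 26.9 and 25.0 RPKM in the forebrain libraries and 78.0, 79.6 and 78.7 in the kidney libraries (-1.34 ± 0.06). Ccnd1, the cyclin of the first gap phase, is not in that list and had 34.9, 34.0 and 33.5 RPKM in the forebrain libraries and 196, 203 and 218 in the kidney libraries (-2.401 ± 0.05). Endothelial genes moved the same way, with all 13 higher in kidney (median -1.41) and only Emcn, of fenestrated and venous vessels, above 4-fold (-2.89 ± 0.09). Cdh5, VE-cadherin, had 14.1, 16.8 and 14.0 RPKM in the forebrain libraries and 43.5, 46.3 and 46.4 in the kidney libraries (-1.41 ± 0.06).

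Few macrophage markers differed. Of 12, 1 was higher in each organ, Cx3cr1 in forebrain (0.48 ± 0.09, a call lost under several alternatives) and Ptprc in kidney (-1.61 ± 0.14). C1qb had 5.55, 7.03 and 6.05 RPKM in the forebrain libraries and 6.74, 6.14 and 6.2 in the kidney libraries and did not pass. Red cell genes did not separate the organs either, with 1 of 9 called, and varied between libraries of the same organ: Hbb-y, an embryonic globin, had 358, 316 and 141 RPKM in the forebrain libraries and 408, 548 and 279.8 in the kidney libraries.

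Markers of neighbouring tissues were checked as well. Choroid plexus, which grows into the forebrain ventricles, was there, with 5 of 8 markers higher in forebrain and 1 in kidney: Ttr, the thyroxine carrier, had 307, 369 and 308 RPKM in the forebrain libraries and 0.0483, 0.182 and 0.105 in the kidney libraries (11.73 ± 0.16), and Otx2 was at least 1339.6-fold higher in forebrain. Of 11 markers of the diencephalon and pituitary, 8 were higher in forebrain, and Lhx9, of the thalamus, had 29.5, 23.7 and 25.8 RPKM in the forebrain libraries and 0.012, 0.0105 and 0.0131 in the kidney libraries (10.41 ± 0.17). The 11 midbrain and hindbrain markers summed to 1.72, 1.44 and 1.95 RPKM in the forebrain libraries, and Atoh1 and Hoxb1 had no read there; 2 of them, Pax3 and Pax7, were higher in forebrain and 6, 4 of these Hox genes, in kidney. In kidney, Myog, Gata4 and Dbh, 1 marker each of skeletal muscle, gonad and sympathetic cells, reached at most 0.478 RPKM in any library. Of those lists 1 of 8, none of 7 and 1 of 10 rows were higher in kidney, and none, 2 and 4 in forebrain. The muscle row and the sympathetic row higher in kidney were so by more than 4-fold. The muscle list summed to 4.73, 4.13 and 3.43 RPKM in the kidney libraries and 1.26, 1.38 and 1.01 in the forebrain libraries. The sympathetic list summed to 4.05, 3.87 and 3.95 RPKM in kidney and 64.6, 70.1 and 69.2 in forebrain. Of 9 meningeal markers 1 was higher in forebrain and 5 in kidney, and the list shares Foxc2, Col1a1 and Aldh1a2 with kidney mesenchyme. Of 9 adrenal cortex markers 2 were higher in each organ, Cyp17a1 and Cyp11b1 were at most 0.032 RPKM in kidney, but the receptor Mc2r had 0.0304, 0.0115 and 0.0255 RPKM in the forebrain libraries and 3.05, 2.77 and 2.73 in the kidney libraries (-6.79 ± 0.27). Of the 9 liver markers, which include Ttr, 3 were higher in kidney, where Afp reached 2.08, 5.01 and 3.59 RPKM and Alb 0.318, 0.859 and 0.267. The part of these tissues in the results was not tested.

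The sex of the embryos was not balanced. Xist, transcribed from the inactive X chromosome, had 135, 0.0223 and 0.0257 RPKM in the forebrain libraries and 199, 199 and 0.463 in the kidney libraries, and the Y-linked Eif2s3y had 0.0395, 45.5 and 42.8 RPKM in the forebrain libraries and 0.0333, 0.0279 and 30.4 in the kidney libraries, so forebrain replicate 1 and kidney replicates 1 and 2 stood apart from the other 3 libraries. None of the 5 sex-linked rows passed the test between organs.

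The most abundant rows above 4-fold were of another kind than the most restricted. In forebrain Nnat, an imprinted proteolipid of developing brain, had 2662, 2852 and 2892 RPKM in the forebrain libraries and 136, 119.5 and 131 in the kidney libraries (4.61 ± 0.10), followed by Tuba1a, Tubb3, Tubb2b, Rtn1, Fabp7, Crmp1, Nsg2, Dpysl3 and Basp1. In kidney 4 of the 10 were imprinted growth regulators or their neighbours. H19 had 95.4, 135 and 123 RPKM in the forebrain libraries and 2356, 2336 and 2214 in the kidney libraries (-4.10 ± 0.15), Igf2, the growth factor next to it, 66.3, 93.3 and 81.8 RPKM in the forebrain libraries and 1025, 1019 and 965 in the kidney libraries (-3.47 ± 0.13), Mest 137, 138 and 144 RPKM in the forebrain libraries and 1048, 1082 and 1061 in the kidney libraries (-2.68 ± 0.08) and the cell cycle inhibitor Cdkn1c 73.6, 91.1 and 86.6 RPKM in the forebrain libraries and 443, 421 and 471 in the kidney libraries (-2.22 ± 0.08). Gpc3, a proteoglycan that restrains growth, had 15.5, 21.4 and 19.9 RPKM in the forebrain libraries and 499, 481 and 463 in the kidney libraries (-4.48 ± 0.12). Rn45s, the ribosomal RNA precursor, was also among them, with 323, 952 and 621 RPKM in kidney, a spread wider than that of the other 9. The remaining rows were Serpinh1, Fstl1, Igfbp4 and Id3.

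The rows of largest ratio were mostly transcription factors in both organs. The 12 forebrain rows included Gad2, A930011O12Rik, Neurod6, Zic4, Neurod2, Zic1, Myt1l, Sez6, Scrt2, Neurog2 and Dlx1, with Scrt2, a repressor of young neurons, at least 10378-fold higher in forebrain, and Sez6, a membrane protein of dendrites, at 136, 134 and 132 RPKM in the forebrain libraries and 0.00961, 0.0181 and 0.00786 in the kidney libraries (13.55 ± 0.10). Rows with few or no reads in the lower organ, which most of these are, have bounds or wide intervals and cannot be ranked among themselves. The 12 kidney rows comprised 8 Hox genes, the antisense Hoxa11as, Cdh16, Hnf4a and Kif12, a kinesin of renal epithelia with 0, 0.00786 and 0 RPKM in the forebrain libraries and 31.7, 33.2 and 39.3 in the kidney libraries, a read ratio of 10169.9 (95% counting interval 1825 to 401731).

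Ribosome-bound RNA of the same lysates gave the organ comparison a second time, in libraries that are not independent tissue. Of 19241 rows tested there, 5233 were higher in forebrain and 5039 in kidney. Rows higher in forebrain in both numbered 4502, 83.4% of the calls in total RNA and 86.0% of those in ribosome-bound RNA, and rows higher in kidney in both 4308, 82.6% and 85.5%. Rows called in opposite directions numbered 39 of the forebrain calls and 11 of the kidney calls. A930011O12Rik, a long non-coding RNA, was at 106, 94.1 and 94.8 RPKM in forebrain total RNA and at 0.532, 0.736 and 0.418 RPKM in forebrain ribosome-bound RNA. Traces of forebrain RNA were larger in the ribosome-bound kidney libraries, with Neurod6 at 0.399, 0.394 and 0.0214 RPKM, where total RNA of kidney held no read of it. Kidney ribosome-bound replicates 1 and 2, the higher ones, shared a lane with forebrain replicates 2 and 3, and the part of the lane was not tested.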

How the data were processed

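Total RNA of 3 forebrain and 3 kidney lysates was sequenced from poly(A) libraries (TruSeq, which does not mark strand). The authors aligned reads to GRCm38/mm10 with RUM and made the deposited counts and RPKM values per RefSeq row with the program rpkmforgenes. From the deposited counts, rows with at least 1 read in the 6 libraries were fitted with edgeR 4.0.16 (TMM, quasi-likelihood test) in R 4.3.3, and p-values were adjusted by Benjamini-Hochberg. The deposited RPKM values are used for levels only; they carry no composition factors, and their log2 ratio lies at a median of -0.189 from the fitted one over 11760 rows above 1 RPKM in both organs, so 17 of 10616 calls point the other way in RPKM. Library totals (31343319 to 56754015 reads) set the counting precision. On simulated data (18950 rows) the fit found 31 of 50 changes of 1.5-fold, 42 of 50 of 2-fold, 50 of 50 of 4-fold and 49 of 50 of 8-fold, with 2 false calls among 18750 rows. The simulated counts of all 6 libraries came from the forebrain means, and only rows with an expected 10 reads or more were changed. Few rows were changed, whereas 53.5% were called between the organs, so these numbers are not error rates of the organ comparison. Replicates are separate pools of organs. The comparison and the gene lists were chosen with earlier results of these data known. Genes named are the 12 rows of largest ratio (mean of at least 5 RPKM, no overlap of libraries) and the 10 most abundant rows above 4-fold in each direction, and members of 33 lists and 24 families, of which 530 of 531 listed genes were found. Alternatives were DESeq2 1.42.0, its size factors, no composition factors, a minimum of 10 reads in 3 libraries, mRNA rows only, a replicate block, all 21 libraries and leaving out each library. Results for some genes are not reported here.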

Additional observations from a re-analysis of the deposited data

Results flagged for a closer look

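Beside the 50 rows called in opposite directions in total and ribosome-bound RNA of the same lysates, the RPKM values of 3 of the genes named in the text lay apart between organs in both kinds of RNA and in opposite directions, and only Agrn of these was called in both. In total RNA, of the 19841 rows tested, 6086 had every forebrain library above every kidney library in RPKM and 8680 had the reverse. How many of all rows lay apart in opposite directions in the 2 kinds of RNA was not counted, and RPKM carries no composition factors. The difference between the 2 kinds of RNA was not tested. Agrn, which encodes the basement membrane and synaptic proteoglycan agrin, was higher in forebrain in total RNA (log2 fold change 0.48 ± 0.07) and higher in kidney in ribosome-bound RNA (-1.50), and was chosen after its values had been seen. Foxp1 had 0.35 ± 0.05 in total RNA and -0.112 ± 0.07 in ribosome-bound RNA, where it did not pass (edgeR, adjusted p 0.176). Meis2 had 0.35 ± 0.06 in total RNA and -0.0317 ± 0.07 in ribosome-bound RNA, where it did not pass either (edgeR, adjusted p 0.699).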

How the results depend on the processing

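The counts of rows higher in forebrain and in kidney ran from 4534 to 5704 and from 5075 to 6384 over the alternatives that kept all 6 libraries, and with each library left out in turn from 4813 to 5108 and from 4657 to 4912, where fewer samples entered the fit. Scaling without composition factors shifted the median of all rows by -0.181 on the log2 scale, gave 4534 rows higher in forebrain and 6384 in kidney, and moved the forebrain share of calls from 50.8% to 41.5%. With the replicate number as a block, 5289 rows were higher in forebrain and 5116 in kidney. Deviations of same-numbered libraries correlated at 0.344, -0.002 and 0.069. These deviations are taken from the mean of only 3 libraries and so are tied to one another. Such a check cannot decide whether the numbers pair the samples. Forebrain and kidney libraries that share a pool number in the study's library list (forebrain 1 with kidney 1, forebrain 2 with kidney 3) correlated at 0.344 and 0.318. Over all pairs of a forebrain and a kidney library these tied correlations ran from -0.339 to 0.344. No pairing is drawn from them, and the design gives none. DESeq2 gave 5704 and 5538 rows. Of the list counts that were recomputed, those in the main direction of a list, none moved by more than 1.5 times. Counts of 1 or 2 members in other lists and families were not recomputed and change with single calls, such as those of Meis2 (stroma), Cx3cr1 (macrophages), Six6 and Sall2. Among single genes the sign turned for C1qb without composition factors (-0.0268) and for Sall2 with mRNA rows only (0.0026), in the fit of all 21 libraries (0.0134) and with single libraries left out (-0.0253 to 0.0227), and neither had passed. Of 191 single genes, 12 changed their sign or their side of the threshold under at least 1 alternative: Foxp1, Meis2, Cx3cr1, Neurog3, Six6 and Agrn lost their call, Aqp2, Cldn5, Gria4, Robo2 and Sall2 gained one, and C1qb changed its sign alone. The causes were not tested. With 3 libraries an organ and a single lane for kidney, lane and organ cannot be told apart, and folds of rows near 3 reads in the lower organ are set by counting error.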
